A study of Rattus norvegicus with 3 samples.

Results

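Transcript levels of 3 aquaporin genes, Aqp1, Aqp4 and Aqp7, are described here in the soleus, a calf muscle of the rat built mostly of slow-twitch fibres. They were chosen by their deposited levels and their differences between the groups, from the 12 aquaporin genes on the array (of 14506 genes with a single annotated symbol). Those values are therefore a description and no test of them was made. Each of the 3 genes (Entrez Gene 25240 for Aqp1, 25293 for Aqp4 and 29171 for Aqp7) had 1 probe set, and all 3 passed the limit on dim genes, a mean over the arrays of 5.72 or more (log2), as did 10154 genes in all. That limit is the 30th percentile of the genes' means.

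The samples were 3 pools of soleus RNA. The DN pool came from rats whose soleus was denervated, the TS pool from rats hung by the tail so that the hind limbs carried no weight, and the Ct pool from rats with neither treatment. All 3 groups were irradiated throughout 2 weeks (50 mSv in total), so that Ct is an irradiated control and the effect of irradiation is not part of any comparison. The rats were 7 weeks old at the start of the experiment, of a strain labelled Brown, 6 in each group. The RNA of a group was pooled and measured on 1 array. There were therefore no replicates, no spread and no test between groups, and each difference is one between pools. The nerve that was cut and how long denervation or suspension lasted before the muscle was taken are not given in the labels used here.

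Aquaporins are membrane channels that let water pass down an osmotic gradient, and one branch of the family, the aquaglyceroporins, also passes glycerol. Aqp4 is the water channel of the muscle fibre's surface membrane, found mainly in fast-twitch fibres and held there through the dystrophin complex. Aqp1 is the water channel of capillary endothelium and of red blood cells. Aqp7 is an aquaglyceroporin best known as the glycerol exit of fat cells, and it has also been described in muscle and its capillaries.

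The 3 genes had 3 different patterns. Aqp4 was lower in denervated and higher in suspended soleus than in the control, Aqp7 was lower in both, and Aqp1 was nearly level. At a limit of 1.5-fold (0.58 on the log2 scale), 2 of the 3 genes were lower and 0 higher in DN than in Ct, where 5.53% of all genes compared were lower and 4.93% higher. Between TS and Ct, 1 of the 3 was higher and 1 lower, where 5.89% of all genes were higher and 2.68% lower. Between DN and TS, 1 of the 3 was lower and 0 higher, where 5.93% of all genes were lower and 3.2% higher. These counts were known when the members were chosen.

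**Figure D1:**
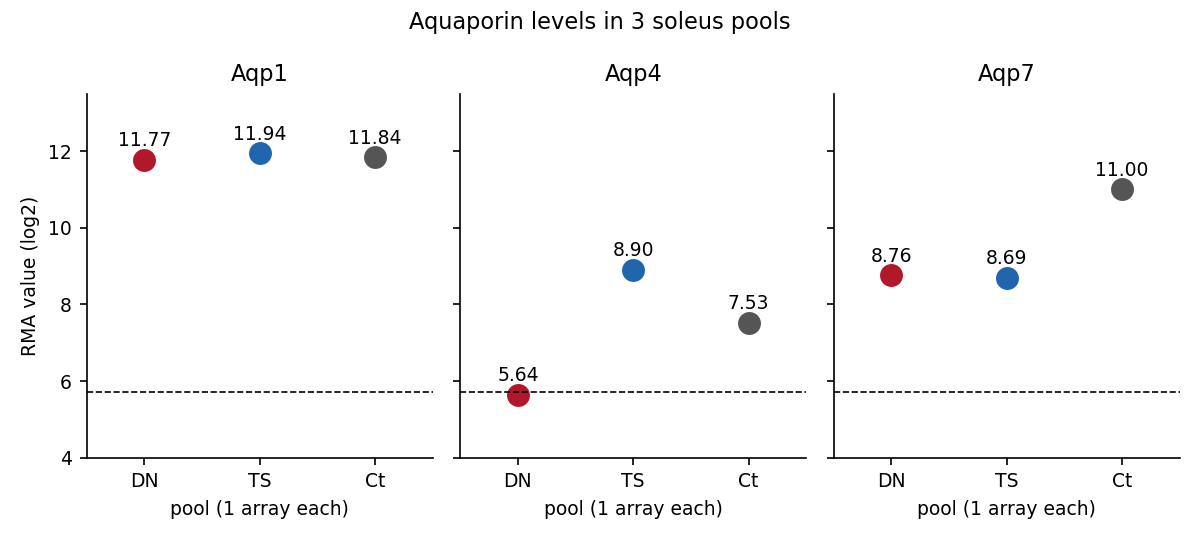
Deposited RMA value (log2) of Aqp1, Aqp4 and Aqp7 in the DN, TS and Ct pools; each point is 1 array of pooled RNA, and the dashed line is the limit on dim genes (5.72). Aqp4 in DN (5.64) lies just below the line and Aqp4 in TS (8.90) above Ct (7.53), whereas Aqp7 in DN (8.76) and TS (8.69) lies below Ct (11.00); heights are to be read within a panel, since probe sets of different genes differ in brightness.

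Aqp4 read 5.64 in DN, 8.90 in TS and 7.53 in Ct (log2). The suspended pool was thus the highest and the denervated pool the lowest, with the control between them. The DN minus Ct difference was -1.89, so that the level in Ct was 3.70 times that in DN, and the TS minus Ct difference was 1.38, or 2.60-fold. Both differences were among the wider ones on these arrays: 45 of the 10154 genes were further below Ct in DN, and 52 were further above Ct in TS. Set directly against each other, DN minus TS was -3.26, a 9.60-fold gap.

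The DN value of Aqp4 lay under the limit on dim genes, where RMA values carry little signal over background, so the size of both DN differences is uncertain. With values below the limit raised to it, an alternative chosen after seeing the data, Aqp4 stood at -1.81 for DN minus Ct and at -3.18 for DN minus TS. All other genes being treated alike, 47 were then further below Ct in DN. Because Aqp4 in DN (5.64) was only just under the limit (5.72), this step could change its differences little and does not settle their size. With 32 added on the linear scale, which damps dim values, DN minus Ct was -1.40 and DN minus TS was -2.64.

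In the deposited values, 4 genes stood further below TS in DN than Aqp4, and they are named here after their values were seen. They were the fast myosin Myh4 (-3.71 for DN minus TS), the sodium channel subunit Scn4b (-3.49), the carbonic anhydrase Car14 (-3.47) and Asb11 (-3.31), an adaptor of ubiquitin ligases. Myh4 was above Ct in both pools, at 2.02 for DN and 5.72 for TS, whereas Scn4b was below Ct in both, at -3.99 for DN and -0.50 for TS. Car14 in DN (5.03) was, like Aqp4, under the limit on dim genes, and with values raised to the limit its gap was -2.78, smaller than that of Aqp4, so that 3 genes were ahead. Asb11 was, like Aqp4, on either side of Ct, at -2.32 for DN and 0.99 for TS.

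By the smallest distance in both differences from Ct, the genes most like Aqp4 were Asb11 (distance 0.58), the voltage-gated potassium channel Kcna7 (0.69) and the Z-disc gene Myoz1 (0.89). Kcna7 stood at -1.75 in DN and 0.70 in TS, and Myoz1 at -1.0 in DN and 1.31 in TS. No gene lay within 0.2 of Aqp4 on this plane. Both differences are taken from the same Ct array, and the likeness rests on 3 arrays.

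Most fast-fibre markers were higher than Ct in both treated pools, in TS, where Aqp4 was higher, and in DN, where it was lower. Of 11 fast-fibre markers measured of 13 listed, 9 exceeded Ct by 1.5-fold or more in TS and 0 were as far below it, with a median difference of 1.82, where the median of all genes was 0.02. In DN 7 of the 11 were higher and 0 lower, with a median of 1.32 beside 0.00 for all genes. Of all genes compared, 5.89% were higher and 2.68% lower in TS, and 4.93% higher and 5.53% lower in DN. Directly between DN and TS, 4 of the 11 were lower and 1 higher, beside 5.93% and 3.2% of all genes. The median was -0.48, the direction of Aqp4. The myosin Myh1 was above Ct by 3.73 in DN and 3.94 in TS, the troponin Tnni2 by 1.36 in DN and 2.91 in TS, and the calcium buffer Pvalb by 4.34 in DN and 0.45 in TS. Atp2a1, the calcium pump of fast fibres, named after its values were seen, lay on either side of Ct as Aqp4 did, at -0.43 in DN and 1.04 in TS. The summed linear level of the list was 43000 in DN, 51900 in TS and 24400 in Ct, and all 11 markers passed the limit on dim genes by their mean. Mybpc2, named after its values were seen, was under that limit in Ct (5.49). The size of its difference in TS (1.97), among the 9 counted as higher, is therefore uncertain. The part of fibre type in the Aqp4 values was not tested.

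Slow-fibre markers, which define the soleus, were bright in all 3 pools. All 12 on the list were measured, between 8.29 and 13.70 in Ct, and the main slow myosin Myh7 read 13.06 in DN, 13.24 in TS and 13.62 in Ct. In DN 6 of the 12 were at least 1.5-fold lower and 0 higher, beside 5.53% and 4.93% of all genes compared. In TS 2 were lower and 0 higher, beside 2.68% and 5.89%. Their median difference from Ct was -0.58 in DN and -0.31 in TS, where the medians of all genes were 0.00 and 0.02. The summed linear level of these markers was 69800 in DN, 82000 in TS and 104000 in Ct. The light chains Myl3 (-1.30 in DN, -0.51 in TS) and Myl2 (-1.13 in DN, -0.94 in TS), the calcium store protein Casq2 (-1.08 in DN, -0.07 in TS) and the Z-disc gene Myoz2 (-0.59 in DN, -0.85 in TS) had the widest differences. Pln, named after its values were seen, went the other way in DN, at 0.39, and stood at -0.29 in TS.

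The dystrophin complex, to which Aqp4 is anchored, was measured at 9 of 16 listed genes. In DN 2 of the 9 were at least 1.5-fold higher and 2 lower, where 4.93% of all genes compared were higher and 5.53% lower. Sntb1, a syntrophin of the beta class, was above Ct by 1.96 and the dystrophin gene Dmd by 1.07. On the lower side were Cav3, the caveolin of muscle (-1.72), and the sarcoglycan Sgcd (-0.78). In TS, where Aqp4 was higher, 0 of the 9 passed 1.5-fold in either direction, beside 5.89% of all genes higher and 2.68% lower. Cav3 stood at 0.45, Dmd at 0.37, Sntb1 at 0.36 and Sgcd at 0.05 in TS. The list's median difference from Ct was 0.00 in DN and 0.05 in TS, close to those of all genes. Of the 9 members, 3 had exactly the same value on all arrays, as did 20.5% of the genes compared; RMA's summary of 3 arrays can return tied values, so a tie does not show that a gene was level.

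**Figure D2:**
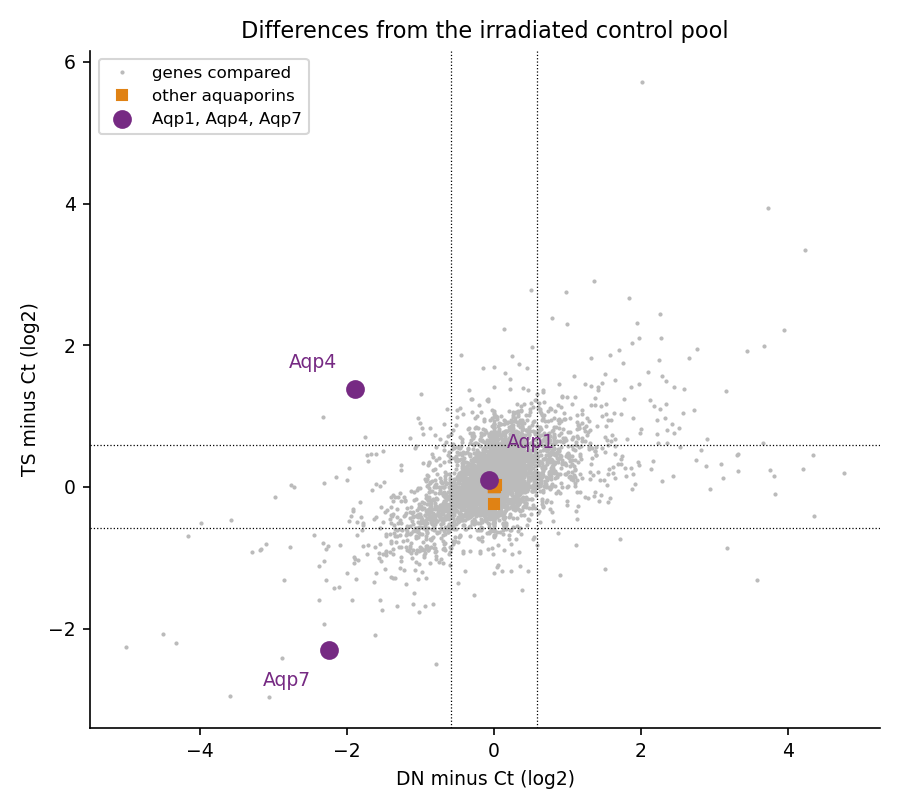
Difference from Ct in DN (horizontal axis, log2) and in TS (vertical axis, log2) of the 10154 genes compared (grey), the other 9 aquaporins (squares) and Aqp1, Aqp4 and Aqp7 (large circles); dotted lines mark 1.5-fold. Aqp4 stands at the upper left (-1.89 and 1.38), 0.58 from the nearest gene kept for the distances. Aqp7 stands at the lower left (-2.24 and -2.31) and Aqp1 at the centre. Both axes share the Ct array, which by itself makes points spread along the diagonal.

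Aqp7 read 8.76 in DN, 8.69 in TS and 11.00 in Ct. Both treated pools lay far below the control and near each other. DN minus Ct was -2.24 and TS minus Ct was -2.31, so that the level in Ct was 4.73 times that in DN and 4.95 times that in TS. DN minus TS was 0.06, and 41.0% of genes had a smaller gap between those pools. All 3 values were well above the limit on dim genes. Aqp7 was among the lowest genes of suspended muscle relative to Ct, with 4 of 10154 genes lower, and 29 were lower in the denervated comparison.

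The 4 genes lower than Aqp7 in TS minus Ct, named after their values were seen, were Tecrl (-2.97), Asb18 (-2.95), Tceal7 (-2.50) and Slc41a3 (-2.41). For DN minus Ct, Tecrl stood at -3.06, Asb18 at -3.59, Slc41a3 at -2.88 and Tceal7 at -0.79. The genes most like Aqp7 in both differences were Bdh1 (distance 0.38), an enzyme of ketone body use, Slc41a3 (0.65), of a family of magnesium transporters, and Fabp3 (0.66), the fatty acid binding protein of heart and slow muscle. Bdh1 stood at -2.31 in DN and -1.94 in TS, and Fabp3 at -1.62 in DN and -2.09 in TS. None of the genes kept for the distances lay within 0.2 of Aqp7.

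Some adipocyte markers were higher in the pools in which Aqp7 was lower, and others stayed within 1.5-fold of Ct. In DN 5 of the 12 measured markers exceeded Ct by 1.5-fold or more and 0 were as far below it. Likewise 5 were higher and 0 lower in TS, and the medians were 0.50 in DN and 0.52 in TS. Of all genes compared, 4.93% were higher and 5.53% lower in DN, and 5.89% higher and 2.68% lower in TS. The hormone adiponectin (Adipoq) was above Ct by 2.10 in DN and 1.62 in TS, the lipid enzyme Scd by 2.22 in DN and 0.74 in TS, the protease adipsin (Cfd) by 1.32 in DN and 1.42 in TS, and the lipid droplet gene Cidec by 1.32 in DN and 1.16 in TS. Plin1, the lipid droplet coat of fat cells, read 7.26 in DN, 7.30 in TS and 6.78 in Ct. Markers that were not higher, named after their values were seen, were the fatty acid binding protein Fabp4, at -0.02 in DN and -0.43 in TS, and the receptor Adrb3, tied on all arrays. The summed linear level of the list was 7190 in DN, 5770 in TS and 4630 in Ct, and 11 of the 12 passed the limit on dim genes. The list's mean was wider than its median, at 0.77 in DN and 0.65 in TS. In pooled tissue RNA, fewer cells of a type and less RNA per cell cannot be told apart.

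Genes that make, store or release glycerol and triglyceride were mixed where Aqp7 was low. Of 20 measured of 22 listed, 2 were at least 1.5-fold higher and 4 lower in DN, beside 4.93% and 5.53% of all genes compared. In TS 3 were higher and 4 lower, beside 5.89% and 2.68%. The medians were -0.03 in DN and -0.07 in TS. The 3 genes higher in TS, named after their values were seen, were Dgat2 (0.94), Gpd2 (0.87) and Gpd1 (0.78). Gk, the kinase that traps glycerol in the cell, read 9.0 in DN, 7.41 in TS and 7.87 in Ct. It was thus above Ct in DN, by 1.13, and below it in TS, at -0.46. The droplet coat Plin2 was above Ct by 1.55 in DN and stood at -0.21 in TS. G0s2, an inhibitor of triglyceride breakdown, was lower in both, at -1.16 in DN and -0.90 in TS, as was Gpam, which starts glycerolipid synthesis, at -1.06 in DN and -0.72 in TS. Gk thus stood on opposite sides of Ct in the 2 pools with lower Aqp7.

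Aqp3, another aquaglyceroporin and a close neighbour of Aqp7 (1 gene lies between them in the order of the GRCr8 assembly), read 5.50 on all 3 arrays, under the limit on dim genes. Aqp9, an aquaglyceroporin of liver, read 5.13 in DN, 5.13 in TS and 5.10 in Ct, also under it. Neither of these related channels read more than 0.03 above Ct in the pools with lower Aqp7, but at values this dim a rise might not be seen.

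**Figure D3:**
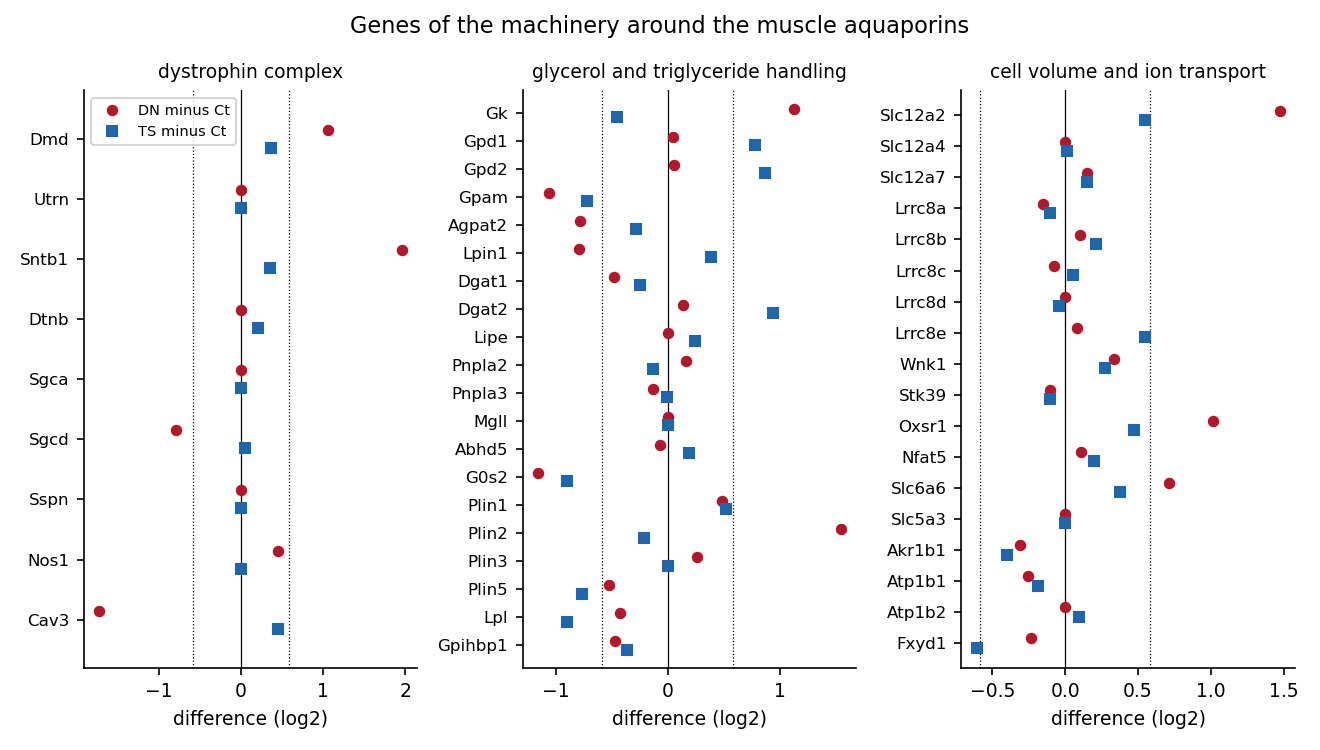
Differences from Ct in DN (circles) and TS (squares), in log2, for each measured gene of the dystrophin complex, of glycerol and triglyceride handling, and of cell volume and ion transport; dotted lines mark 1.5-fold and axes differ between panels. Sntb1 (1.96), Plin2 (1.55) and Slc12a2 (1.47) are the highest DN points of their panels, and Cav3 (-1.72) is the lowest DN point.

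Aqp1 read 11.77 in DN, 11.94 in TS and 11.84 in Ct. The 3 pools lay within 0.17 of each other. DN minus Ct was -0.07 and TS minus Ct was 0.10, and 56.7% of genes differed less from Ct in DN and 46.1% less in TS. Aqp1 was brighter than 98.6% of genes by its mean, a range in which array signals can be compressed. The median of the TS array over the genes compared lay 0.13 above that of Ct, and relative to it Aqp1 stood at -0.03 in TS, so its direction there depends on the scaling. On the same centred scale Aqp4 stood at 1.24 and Aqp7 at -2.44 for TS minus Ct.

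Of the genes kept for the distances, 5288 lay within 0.2 of Aqp1 in both differences. The nearest, Apip, Prickle1 and Slc4a4 (distances 0.0024, 0.0064 and 0.0077), therefore say little about it. Apip, an enzyme of methionine salvage, stood at -0.07 in DN and 0.10 in TS, Prickle1, of planar cell polarity, at -0.08 in DN and 0.10 in TS, and the bicarbonate cotransporter Slc4a4 at -0.08 in DN and 0.10 in TS.

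Most markers of the endothelium, where Aqp1 resides, lay within 1.5-fold of Ct in both pools, though in DN none was above Ct. Of 13 measured of 15 listed, 2 were at least 1.5-fold lower and 0 higher in DN, beside 5.53% and 4.93% of all genes compared. In TS 1 was lower and 0 higher, beside 2.68% and 5.89%. The medians were -0.28 in DN and -0.03 in TS. Kdr, the main receptor for vascular endothelial growth factor, stood at -0.87 in DN and -0.73 in TS, and the related Flt1 at -0.70 in DN and -0.11 in TS. Pecam1, an adhesion protein of endothelial junctions, read 10.30 in DN, 10.59 in TS and 10.62 in Ct. Esam, a further junction protein, stood at -0.41 in DN and 0.36 in TS, and Emcn, a surface sialoglycoprotein, at -0.38 in DN and -0.34 in TS. The summed linear level was 7790 in DN, 9130 in TS and 9870 in Ct, and all 13 passed the limit on dim genes.

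Markers of red cells, the other site of Aqp1, were measured at 7 of 12 listed genes, of which 4 were under the limit on dim genes. None passed 1.5-fold against Ct in either pool. Of all genes compared, 4.93% were higher and 5.53% lower in DN, and 5.89% higher and 2.68% lower in TS. With so few markers above the limit, a count of 0 does not show that red cell content was level. Directly between DN and TS, 2 of the 7 were lower, Hbb (-0.91) and Alas2 (-0.88), and 0 higher, beside 5.93% and 3.2% of all genes. The list median against Ct was -0.36 in DN and 0.00 in TS. The globin Hbb read 10.58 in DN, 11.50 in TS and 10.94 in Ct, and its close copy Hbb-b1, which may share signal with it, read 9.99 in DN, 10.41 in TS and 10.52 in Ct. Alas2, the haem enzyme of red cell precursors, read 6.65 in DN, 7.53 in TS and 7.08 in Ct, and Ahsp, the alpha globin chaperone, read 3.42 in DN, 3.89 in TS and 3.92 in Ct. All 4 were lowest in DN, whereas Hbb and Alas2 were highest in TS and Hbb-b1 and Ahsp in Ct. Ahsp was under the limit on dim genes. The remaining measured markers, Slc4a1, Epb42 and Rhag, were also under it and were tied on all arrays. The summed linear level of the list was 2760 in DN, 4540 in TS and 3680 in Ct. The part of vessels and blood in the Aqp1 values was not tested.

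**Figure D4:**
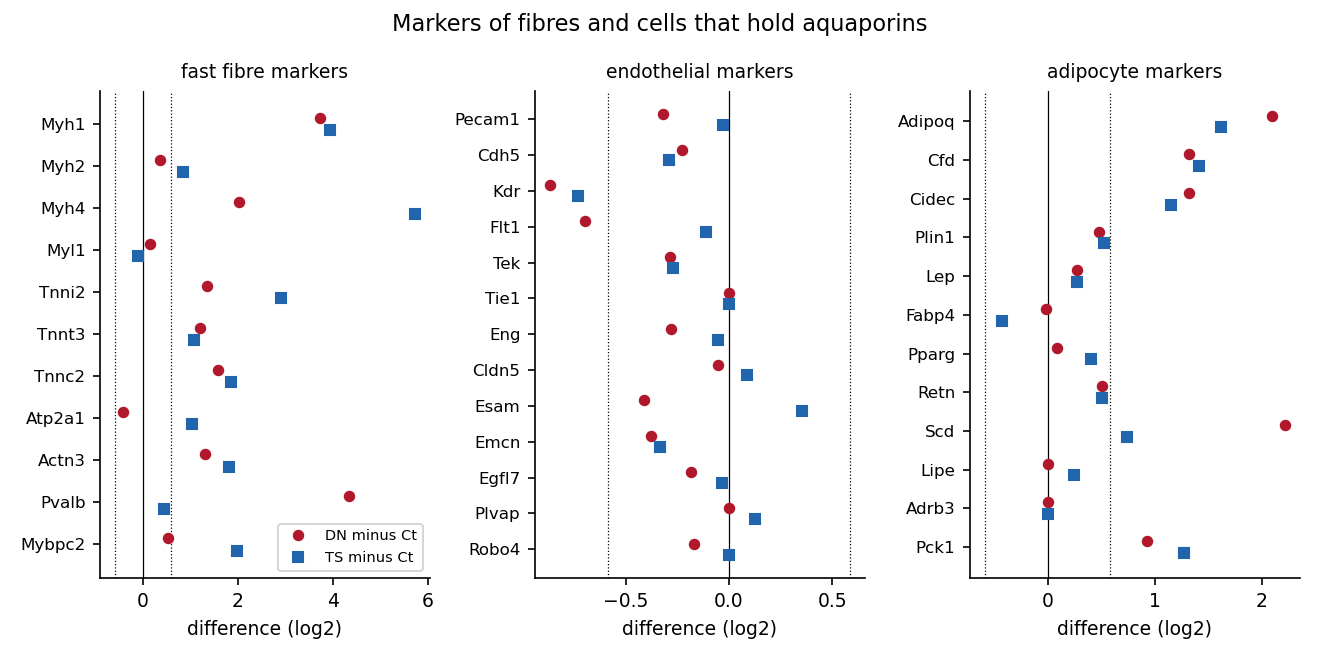
Differences from Ct in DN (circles) and TS (squares), in log2, for each measured marker of fast fibres, endothelium and adipocytes; dotted lines mark 1.5-fold and axes differ between panels. Fast-fibre markers reach 5.72 (Myh4 in TS) and 4.34 (Pvalb in DN), endothelial markers lie between -0.87 and 0.36, and adipocyte markers reach 2.22 (Scd in DN).

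Schwann cell markers were measured at 9 of 11 listed genes, with medians of 0.00 in DN and 0.21 in TS. In DN 2 were at least 1.5-fold higher and 0 lower, beside 4.93% and 5.53% of all genes compared. In TS 2 were higher and 1 lower, beside 5.89% and 2.68%. The higher count was 1 instead of 2 in both pools with centring or with 32 added on the linear scale. The myelin gene Cnp stood at 0.79 in DN and 0.51 in TS, the receptor Erbb3 at 0.35 in DN and 0.92 in TS, the myelin regulator Egr2 at 0.59 in DN and -0.82 in TS, and the myelin protein Prx at -0.31 in DN and 0.67 in TS. Their summed linear level was 4100 in DN, 4490 in TS and 3620 in Ct.

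The other 9 aquaporins were dim and nearly identical between the pools. Their values ran from 4.66 to 6.11 over all arrays, 7 of the 9 were under the limit on dim genes, and 0 of the 9 passed 1.5-fold in any comparison. Of all genes compared, from 2.68% to 5.93% passed it in a given direction of a comparison, so a count of 0 among 9 genes does not set them apart. Exact ties on all 3 arrays were found for 6 of them: the lens channel Mip (5.65), Aqp3 (5.50), the gland channel Aqp5 (6.11), Aqp8 (5.07), Aqp11 (5.43) and Aqp12a (4.66). Among genes under the limit, 58.8% were tied in this way. Aqp2, the vasopressin-regulated channel of the kidney, read 5.97 in DN, 5.96 in TS and 5.96 in Ct. Aqp6 read 5.17 in DN, 4.94 in TS and 5.17 in Ct, the widest gap among the 9, at -0.23 for TS minus Ct. At these brightnesses a difference was not detectable, which does not show that the transcripts are absent.

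Of genes for cell volume and ion transport, which set the gradients that water follows, 18 of 23 listed were measured. In DN 3 were at least 1.5-fold higher and 0 lower, beside 4.93% and 5.53% of all genes compared. In TS 0 were higher and 1 lower, beside 5.89% and 2.68%. The medians were 0.00 in DN and 0.08 in TS. Slc12a2, the sodium-potassium-chloride cotransporter that loads cells with salt, read 10.81 in DN, 9.88 in TS and 9.34 in Ct. Its activating kinase Oxsr1 was above Ct by 1.01 in DN and 0.47 in TS, and the taurine transporter Slc6a6 by 0.72 in DN and 0.38 in TS. Fxyd1, a regulator of the sodium pump, stood at -0.23 in DN and -0.61 in TS, and its TS difference passed 1.5-fold as deposited but not with quantile normalization or with an expression trend removed.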

How the data were processed

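Pooled soleus RNA was hybridised to Affymetrix Rat Gene 1.0 ST arrays, 1 per pool. The series' design text mentions 2 arrays, but values of 3 were deposited. Per the labels, the authors deposited RMA values from Affymetrix Expression Console (core-exon analysis), read here as log2 values; the labels give no base of the logarithm, and folds assume base 2. For the tool's version and the genome build, nothing is stated (not given in the sources used here). Of 29170 probe sets, 15310 had 1 gene symbol, 323 several and 13537 none in the platform annotation, and only the first kind was used, the brightest probe set standing for a gene. All 12 aquaporin gene identifiers kept their symbol in a RefSeq table of GRCr8.

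Differences (DN minus Ct, TS minus Ct, DN minus TS) were taken as deposited, and genes were counted at 1.5-fold. Named in the text were all aquaporins, up to 4 members per list with the widest differences from Ct, 11 fixed genes where measured, and the 3 genes nearest to each member; other names are marked as chosen after their values were seen. The members and lists were chosen with earlier results of these data known. Alternatives were array centring, quantile normalization, removal of a loess trend (span 0.3), 32 added on the linear scale, other filters (none, 50th percentile) and a 2-fold limit, the mean of probe sets and list means. Raising values below the limit on dim genes to that limit was added after seeing the data. The software was pandas 2.3.3, numpy 2.4.6, statsmodels 0.14.6 and matplotlib 3.10.9 under Python 3.11.15. The number of arrays limits the precision.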

Additional observations from a re-analysis of the deposited data

How the results depend on the processing

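Of 54 recomputed values of the 9 differences of Aqp1, Aqp4 and Aqp7, 52 moved by at most 0.2 (log2) and stayed on their side of 1.5-fold. The other 2 came from adding 32 on the linear scale, which damps dim values: Aqp4 stood at -1.40 for DN minus Ct and -2.64 for DN minus TS, both in the same direction. Aqp1 in TS minus Ct changed sign under centring only (-0.03). The mean of probe sets changed nothing, because each member had 1. Raising values to the limit on dim genes, chosen after seeing the data, is also counted in the 54. It could move only the differences that use Aqp4 in DN. The 52 therefore include values that could not move. Over all genes, centring gave 357 instead of 598 genes 1.5-fold or more above Ct in TS and moved their share among the genes past 1.5-fold to 47.2%, against 68.7% as deposited. For DN minus TS it gave 382 instead of 602 lower genes and 55.2% higher, against 35.1%. With the limit at 2-fold in place of 1.5-fold, DN had 227 genes above Ct (501 at 1.5-fold) and 227 below (562), TS had 139 above Ct (598) and 70 below (272), and DN had 122 above TS (325) and 177 below (602). List medians moved by more than 0.2 or crossed 1.5-fold in 6 of 150 recomputations, and list counts by over 1.5 times in 14 of 240. No paired analysis was possible because each group has 1 array and the labels give no replicate numbers.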
